A study of Mus musculus with 6 samples.

Results

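Fc gamma receptors bind the constant region of immunoglobulin G and tell a phagocyte what to do with antibody-coated material. This account covers the 6 mouse genes of that system that were taken by name from the array: the activating receptors Fcgr1, Fcgr3 and Fcgr4, their shared signalling subunit Fcer1g, the inhibitory receptor Fcgr2b, and the neonatal receptor Fcgrt. All 6 were represented, by 8 of the 56605 non-control probes, and all 6 were among the 19485 genes tested. The cells were bone marrow monocytes of C57BL/6J mice, 6 to 8 weeks old, purified with a magnetic isolation kit. All cultures held M-CSF at 20 ng/mL, a cytokine under which monocytes mature to macrophages, and after 60 h their RNA was measured on 1-colour Agilent arrays. The control group (3 arrays) received M-CSF alone, and the IFN-beta group (3 arrays) received M-CSF together with 100 U of mouse interferon-beta, a type I interferon. The series title states the question as the effect of type I interferon on gene expression in maturing monocytes. The labels do not state whether replicates were separate mice or cultures, so p-values here measure only the spread between these samples, which may be technical.

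In the mouse the activating receptors signal through the gamma chain, encoded by Fcer1g, whose tyrosine motif recruits the kinase Syk and leads to phagocytosis, the oxidative burst and cytokine release. Fcgr2b carries an inhibitory motif that recruits the inositol phosphatase SHIP1 and damps the same signals, so the balance of activating and inhibitory receptors sets the threshold of a macrophage for immune complexes. Fcgrt encodes the heavy chain of the neonatal receptor FcRn, which pairs with beta-2-microglobulin, binds IgG and albumin in acidic endosomes and returns them to the cell surface instead of signalling.

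The probes that carry these measurements are shown by their first 30 bases, because Fcgr2b and Fcgr3 are closely related in their extracellular parts and a reader may want to see that different letters were used for each.
Fcgr1: tctggtttcacatcctgttttatctgtcag
Fcgr4: ccaagaagcgattcttcagaattttacact
Fcgr3, brighter probe: ttacaagcaggccgggatgtttggttcttc
Fcgr3, dimmer probe: ctacaaaagtaatttctctatcccaaaagc
Fcer1g: aggtccccatctccgttaaagacttactca
Fcgr2b, brighter probe: acttctgtgagtcctgaaaccaacagacac
Fcgr2b, dimmer probe: tcgcagccattgttattatcctagtatcct
Fcgrt: gctggaggttaaacgtggagatgagcacca
No run longer than 8 bases was shared between any of the 8 probes over their whole length, and no other of the 56605 probes on the array shared a run of 20 bases with one of them. The probes were not compared with transcripts here, so matches to related transcripts that the array does not target were not examined.

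By the positions in the deposited files (mm9), the low-affinity receptors lie together on chromosome 1. The brighter Fcgr2b probe is at chr1:172890988-172891047 on the minus strand and the dimmer one at chr1:172895833-172895892. The Fcgr4 probe follows at chr1:172959738-172959797 on the plus strand, and the Fcgr3 probes at chr1:172981647-172981722 and chr1:172984129-172984188 on the minus strand. The Fcer1g probe is farther along the same chromosome, at chr1:173159794-173159853 on the minus strand. Fcgr1, the high-affinity receptor, lies on chromosome 3, with its probe at chr3:96088462-96088521, and Fcgrt on chromosome 7, with its probe at chr7:52350556-52350615, both on the minus strand. An mm9 annotation was not used here, so the probes are not assigned to exons or untranslated regions.

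Promoters are shown for Fcgr1 and Fcgr4, which rose most of the 6 genes, and for Fcgr2b, the inhibitory receptor beside them. The sequences are from RefSeq (GRCm38.p6), which held windows for all 6 genes, and cover the 250 bases before the annotated start. Capitals mark matches, on either strand, to TTCNNNGAA, the letters of the gamma-activated site, an interferon response element, or to GAAANNGAAA, a core of the interferon-stimulated response element.
Fcgr1, chr3:96293970-96294219, minus strand: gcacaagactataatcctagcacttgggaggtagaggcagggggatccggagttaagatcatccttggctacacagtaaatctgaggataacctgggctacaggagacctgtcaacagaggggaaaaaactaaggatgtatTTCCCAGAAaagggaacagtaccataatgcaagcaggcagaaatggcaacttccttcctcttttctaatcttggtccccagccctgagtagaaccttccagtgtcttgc
Fcgr4, chr1:171018676-171018925, plus strand: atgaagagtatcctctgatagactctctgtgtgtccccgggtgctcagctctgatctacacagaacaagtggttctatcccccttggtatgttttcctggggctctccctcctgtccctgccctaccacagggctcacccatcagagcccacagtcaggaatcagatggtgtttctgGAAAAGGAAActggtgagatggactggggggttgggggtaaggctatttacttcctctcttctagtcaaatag
Fcgr2b, chr1:170976072-170976321, minus strand: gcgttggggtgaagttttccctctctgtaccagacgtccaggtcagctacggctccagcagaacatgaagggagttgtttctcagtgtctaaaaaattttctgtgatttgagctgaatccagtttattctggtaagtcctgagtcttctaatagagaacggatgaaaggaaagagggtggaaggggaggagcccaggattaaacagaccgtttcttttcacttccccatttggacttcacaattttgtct
The Fcgr1 window held 1 match to TTCNNNGAA, TTCCCAGAA, from 109 to 101 bases before the start. The Fcgr4 window held 1 match to GAAANNGAAA, GAAAAGGAAA, from 73 to 64 bases before the start. The windows of Fcgr2b, Fcgr3, Fcer1g and Fcgrt held neither set of letters. Over all 32851 promoter windows of the same length, 7.0% held TTCNNNGAA and 3.0% held GAAANNGAAA. GAGGAA, a core of the sites of the myeloid factor PU.1, was found on the reverse strand in the windows of Fcgr1, Fcgr3 and Fcgr4, and in 23.3% of all windows. A match is a description of the letters and not evidence of binding.

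Values are log2 processed signals minus the 75th percentile of the same array, so 0 stands for the 75th percentile itself. Differences between groups were tested with limma, with p-values adjusted by Benjamini-Hochberg over all genes tested, and a gene was called at an adjusted p under 0.05. Before scaling, that percentile was 305.4 to 549.2 on the control arrays and 236.4 to 244.5 on the IFN-beta arrays, and no probe was saturated. Monocyte and macrophage markers were well above background on all arrays (11 of 11 genes), and 5 of them were called, where 19.8% of all genes tested were. Ly6c2 was higher with IFN-beta (log2 fold change 2.89), and Cd14 (-1.81), Mertk (-1.76), Cx3cr1 (-1.44) and Itgam (-0.72) were lower, genes named after their values were seen. Of the 2 tested Itgam probes, 1 changed in the opposite direction. The control arrays were not alike: 10 of 10 fibroblast markers were well above background in controls 1 and 2 and 4 of 10 in control 3. The log2 of the summed fibroblast level was 8.55 and 8.78 in controls 1 and 2, -0.19 in control 3, and 0.93 to 1.21 with IFN-beta. Controls 1 and 2 were also close to each other, with a median absolute deviation of their log2 difference of 0.0822 over 11768 bright probes, against 0.258 and 0.277 between control 3 and each of them. Repeat spots within the arrays would give 0.0657 for controls 1 and 2, so these arrays differed by little more than repeat spots, and the labels do not say whether they came from 1 culture. Averaged as 1 sample, an alternative chosen after the data were seen, they left Fcgr1, Fcgr4, Fcgr2b and Fcgrt called (limma, adjusted p = 0.00484, 0.00482, 0.0287 and 0.00166). Each receptor is also given against control 3 alone. That arm is 1 array, which the fit assumes to vary like the IFN-beta arrays, so those p-values hold no spread between controls. IFN-beta array 1 shared a slide with the 3 controls, and IFN-beta arrays 2 and 3 were on another slide.

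With IFN-beta, Fcgr1 and Fcgr4 were the receptors that rose most, Fcgr2b rose less, and Fcgrt fell. Fcgr3 and Fcer1g did not pass the test. In all, 4 of the 6 genes were called, 3 higher and 1 lower, where 19.8% of all genes tested were called, 11.8% higher and 8.02% lower. No overlap between the groups was seen for 5 of the 6, against 40.1% of all genes tested. All 6 passed the filter on dim probes in both groups. The median log2 fold change of all genes tested was 0.10. Because each value is from a whole culture, fewer cells of a type and less RNA per cell cannot be told apart for any of these genes.

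**Figure D1:**
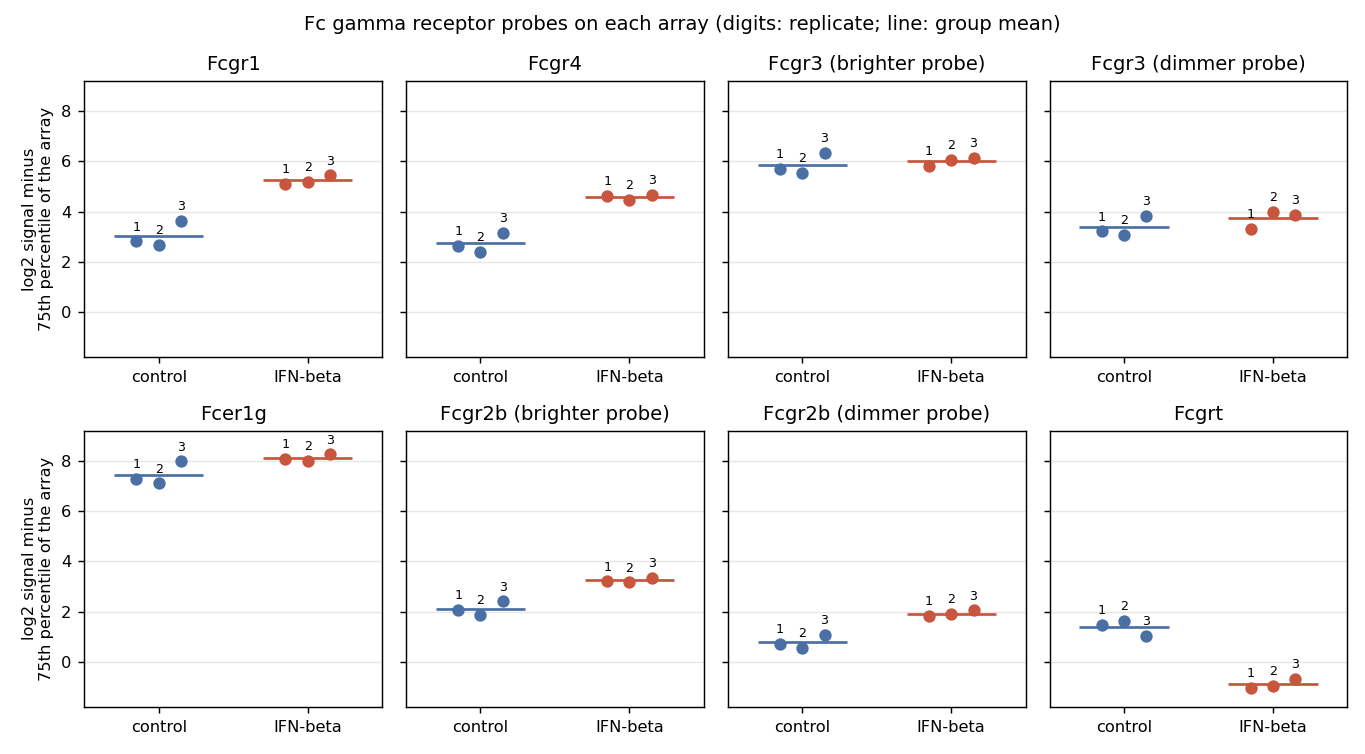
Level of each of the 8 receptor probes on each array, as log2 signal minus the 75th percentile of the array, with 1 point per array (digits give the replicate) and a line at the group mean. Fcgr1, Fcgr4 and both Fcgr2b probes sit higher on all IFN-beta arrays, Fcgrt sits lower, and the Fcgr3 groups overlap.

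Fcgr1 is the high-affinity receptor, which binds single IgG molecules and not only immune complexes. Its level was 2.81, 2.66 and 3.64 in controls 1 to 3 and 5.09, 5.19 and 5.44 on the IFN-beta arrays. Every IFN-beta array was above every control, with 1.45 between the highest control and the lowest IFN-beta array, and control 3 was the highest control. The mean rose from 3.04 ± 0.53 (SD, n = 3) to 5.24 ± 0.18 (SD, n = 3), a log2 fold change of 2.20 ± 0.27 (SE) or 4.61-fold (limma, adjusted p = 0.00173). Only 1.65% of the genes tested had a higher fold change. Against control 3 alone the rise was 1.60, or 3.04-fold (adjusted p = 0.0118). The signal before scaling also separated the groups, at 3340 to 3850 in the controls and 8330 to 10500 with IFN-beta.

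Fcgr4 is an activating receptor of intermediate affinity that binds IgG2a and IgG2b and is found on monocytes, macrophages and neutrophils. Its level was 2.64, 2.39 and 3.16 in controls 1 to 3 and 4.63, 4.48 and 4.68 with IFN-beta. The groups were again apart, by 1.32, and the IFN-beta arrays were closer to each other than the controls were. The mean rose from 2.73 ± 0.39 (SD, n = 3) to 4.60 ± 0.10 (SD, n = 3), a log2 fold change of 1.87 ± 0.22 (SE) or 3.64-fold (limma, adjusted p = 0.00146). Against control 3 alone it was 1.44, or 2.71-fold (adjusted p = 0.0119). Before scaling the signal was 2730 to 3440 in the controls and 5280 to 6190 with IFN-beta. Neutrophil markers, 10 of 10 well above background on all arrays, mostly moved the same way. The log2 of their summed level was 8.94 to 9.37 in the controls and 9.73 to 10 with IFN-beta. Of the 10, 6 were called higher, where 11.8% of all genes were, and 0 lower. Mmp8 went the other way and was not called (-0.29, limma, adjusted p = 0.463). The part of these markers in the Fcgr4 result was not tested.

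Fcgr3 is the low-affinity activating receptor found on nearly all myeloid cells. Its brighter probe read 5.70, 5.54 and 6.33 in controls 1 to 3 and 5.81, 6.06 and 6.15 with IFN-beta. The groups overlapped, since control 3 was above all IFN-beta arrays while controls 1 and 2 were below them. The log2 fold change was 0.15 ± 0.24 (SE; limma, adjusted p = 0.687), and it was 0.39 against controls 1 and 2 and -0.32 against control 3, with neither called (adjusted p = 0.0845 and 0.436). Its sign also turned under other scalings, to -0.0061 with quantile normalization and -0.041 with spike-in scaling. The dimmer probe read 3.21, 3.07 and 3.83 in the controls and 3.32, 4.0 and 3.86 with IFN-beta. It overlapped as well, with a log2 fold change of 0.35 ± 0.27 (SE; limma over probes, adjusted p = 0.364). Before scaling, the signal of both probes was lower with IFN-beta, without overlap. The brighter probe was at 28600, 24600 and 24600 in controls 1 to 3 and 13700, 15800 and 17200 with IFN-beta. The dimmer probe was at 5080, 4450 and 4340 in the controls and 2440, 3770 and 3500 with IFN-beta. The groups overlapped once each array was set against its own percentile.

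Fcer1g encodes the gamma chain that the activating receptors need for surface expression and signalling. Its level was 7.27, 7.10 and 7.98 in controls 1 to 3 and 8.07, 8.00 and 8.26 with IFN-beta. The lowest IFN-beta array was only 0.02 above control 3, so that the separation of the groups came from controls 1 and 2. The log2 fold change of 0.66 ± 0.25 (SE) did not pass the test (limma, adjusted p = 0.101). It was 0.92 against controls 1 and 2, where it was called (adjusted p = 0.00402), and 0.13 against control 3 alone (adjusted p = 0.745). In the fit without control 3, 48.5% of all genes were called (27.7% higher, 20.9% lower), and in the fit against control 3 alone 9.80% (5.12% higher, 4.68% lower). The signal before scaling was not higher with IFN-beta, at 72300 to 84900 in the controls and 60400 to 73800 with IFN-beta.

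Fcgr2b is the inhibitory receptor. Its brighter probe read 2.05, 1.88 and 2.40 in controls 1 to 3 and 3.20, 3.16 and 3.35 with IFN-beta. Every IFN-beta array was above every control, by at least 0.76. The mean rose from 2.11 ± 0.26 (SD, n = 3) to 3.23 ± 0.10 (SD, n = 3), a log2 fold change of 1.12 ± 0.19 (SE) or 2.18-fold (limma, adjusted p = 0.00638). The dimmer probe, which shares no run of more than 8 bases with the brighter one, read 0.71, 0.55 and 1.07 in the controls and 1.82, 1.90 and 2.04 with IFN-beta. Its log2 fold change was 1.14 ± 0.19 (SE; limma over probes, adjusted p = 0.00578), so the probes of Fcgr2b gave nearly the same value; 21.5% of all probes tested were called. Against control 3 alone the brighter probe differed by 0.84, or 1.78-fold, and was not called (adjusted p = 0.0627). The signal before scaling overlapped, at 2280, 1940 and 1610 in controls 1 to 3 and 2240, 2110 and 2460 with IFN-beta, and the groups separated once each array was set against its own 75th percentile.

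Fcgrt went the other way. Its level was 1.46, 1.63 and 1.02 in controls 1 to 3 and -1.03, -0.95 and -0.70 with IFN-beta. Every IFN-beta array was below every control, with 1.73 between the groups, and control 3 was the lowest control. The mean fell from 1.37 ± 0.31 (SD, n = 3) to -0.89 ± 0.17 (SD, n = 3), a log2 fold change of -2.27 ± 0.21 (SE), or 4.81-fold lower (limma, adjusted p = 4.87e-04). Only 1.97% of the genes tested had a lower fold change. The processed signal was 1510, 1630 and 621 in the controls and 119, 123 and 149 with IFN-beta, where it was still well above background on all 3 arrays.

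Fibroblast markers were high in controls 1 and 2, where Fcgrt was highest, and low in control 3 and with IFN-beta. Of 7 endothelial markers, 7 were well above background in controls 1 and 2, 4 in control 3 and 4, 4 and 3 with IFN-beta. Their median level was 0.62 and 0.39 in controls 1 and 2, -3.56 in control 3 and -3.93 to -3.72 with IFN-beta. The log2 of their summed level differed less and overlapped between the groups. It was 4.86 and 4.48 in controls 1 and 2, 3.87 in control 3 and 4.13 to 4.25 with IFN-beta. Of the 4 endothelial markers tested, 1 was called higher and 1 lower, where 11.8% of all genes were higher and 8.02% lower. Against control 3 alone, which is 1 array, the log2 difference of Fcgrt was -1.92, or 3.78-fold lower with IFN-beta. Dendritic cell markers were higher in the controls. Of 5, 4 were well above background on each control and 2 on each IFN-beta array. Where 8.02% of all genes were called lower with IFN-beta, 2 of the 4 tested dendritic cell markers were. These were Cd209a (at least 37.9-fold lower) and Zbtb46 (at least 2.55-fold lower), neither well above background on any IFN-beta array and both named after their values were seen; the bound sets the control mean against the lowest signal well above background on each IFN-beta array, or the gene's own where higher. The log2 of their summed level was 5.25 to 5.75 in the controls and 4.55 to 5.01 with IFN-beta. The part of these lists in the Fcgrt result was not tested. B2m, which encodes the light chain that FcRn shares with class I MHC molecules, did not follow Fcgrt. Its level was 6.52, 6.50 and 6.88 in the controls and 7.59, 7.54 and 7.52 with IFN-beta, without overlap. It rose by a log2 fold change of 0.92 ± 0.17 (SE; limma, adjusted p = 0.00979), but was not called without control 1 (adjusted p = 0.0561) or against control 3 alone (0.68, adjusted p = 0.0961).

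**Figure D2:**
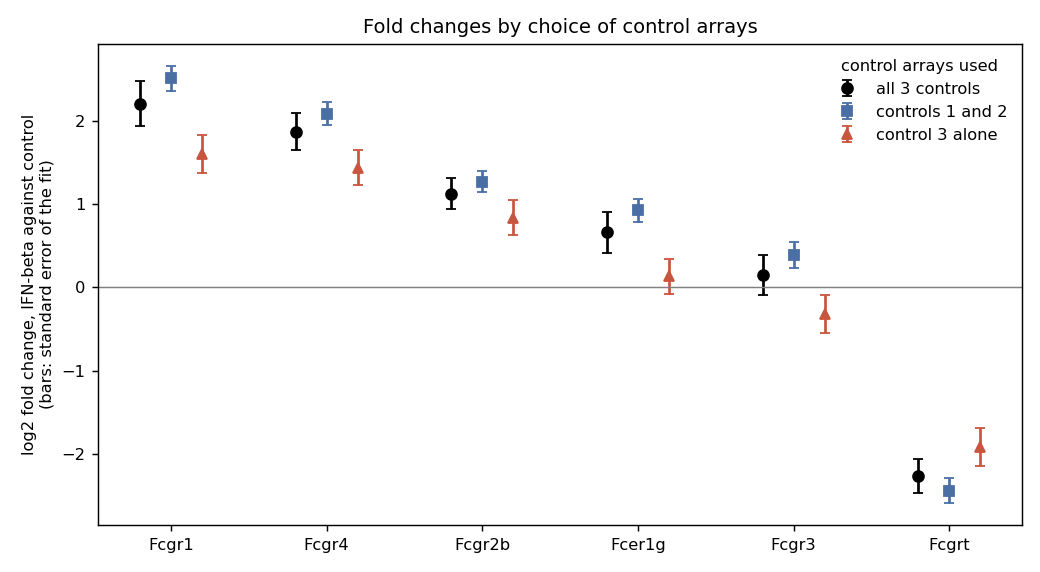
Log2 fold change of the 6 genes with IFN-beta, fitted against all 3 controls (black), controls 1 and 2 (blue) or control 3 alone (red), with bars for the standard error of each fit. Fcgr1, Fcgr4 and Fcgr2b stay above 0 and Fcgrt below 0 with each choice, while Fcgr3 changes sign and Fcer1g moves between 0.13 and 0.92.

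Slide 2 held only IFN-beta arrays, so any comparison within a slide sets a single array, IFN-beta 1, against the 3 controls. Its log2 differences were 2.06 for Fcgr1, 1.90 for Fcgr4, 1.09 for Fcgr2b and -2.41 for Fcgrt. None was called in a fit of slide 1 alone, where the lone array is assumed to vary like the controls. With the slide as a block, which gives the same differences and takes only added spread from slide 2, limma gave adjusted p = 0.0435, 0.0316 and 0.0114 for Fcgr1, Fcgr4 and Fcgrt, and 0.0891 for Fcgr2b, which was not called. For Fcer1g and Fcgr3 they were 0.62 and -0.05. Scaling by the spike-in control spots, in which far fewer genes were called (363 in place of 3857), gave 2.01, 1.67, 0.93 and -2.46 for Fcgr1, Fcgr4, Fcgr2b and Fcgrt, with none called.

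The activating receptors and the gamma chain were then set against Fcgr2b and Fcgrt within each array, a difference that dividing an array by a single factor (the 75th percentile or the spike-in level) leaves as it is, but that quantile normalization and background correction can move. For each of 8 pairs, the log2 difference of both genes was compared between the groups by a 2-sided exact permutation test. With 3 arrays against 3, this exact test cannot go below p = 0.10. Every pair had that exact permutation p (0.1 after Benjamini-Hochberg adjustment over the 8 pairs), and no pair could pass 0.05. The direction was shared by 3 of 3 IFN-beta arrays in each pair and the groups did not overlap in any. Of all single genes tested, 40.1% had no overlap, and the share over other pairs of genes was not computed. The 8 pairs reuse the same 6 genes and are not separate observations.

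Relative to Fcgr2b, Fcgr1 and Fcgr4 gained and Fcgr3 and Fcer1g lost. Set to a control mean of 0, Fcgr1 minus Fcgr2b was -0.17, -0.14 and 0.31 in the controls and 0.97, 1.10 and 1.17 with IFN-beta, a shift of 1.08 or 2.11-fold. Fcgr4 minus Fcgr2b was -0.03, -0.11 and 0.14 in the controls and 0.81, 0.70 and 0.71 with IFN-beta, a shift of 0.74 or 1.67-fold. Fcgr4 and Fcgr2b are next to each other on chromosome 1, with Fcgr3 beside them. Fcgr3 minus Fcgr2b was -0.10, -0.09 and 0.18 in the controls and -1.13, -0.84 and -0.94 with IFN-beta, a shift of -0.97. Fcer1g minus Fcgr2b shifted by -0.47, and its 3 IFN-beta arrays lay between -0.50 and -0.43. Of the 4 differences from Fcgr2b, it moved most with the processing. It was -0.75 with quantile normalization, -0.72 in the deposited table and -0.81 with normexp and quantile normalization. Against control 3 alone the 4 shifts were 0.77, 0.60, -1.16 and -0.71, in the order Fcgr1, Fcgr4, Fcgr3 and Fcer1g, each in the same direction.

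Relative to Fcgrt, every activating receptor and the gamma chain gained. Fcgr1 minus Fcgrt was -0.32, -0.63 and 0.95 in the controls and 4.46, 4.47 and 4.48 with IFN-beta, a shift of 4.47 or 22.2-fold. The wide spread of the controls came from control 3, in which Fcgr1 was higher and Fcgrt lower than in the others. Fcgr4 minus Fcgrt shifted by 4.13, or 17.5-fold, Fcer1g minus Fcgrt by 2.92, or 7.59-fold, and Fcgr3 minus Fcgrt by 2.42, or 5.33-fold. Against control 3 alone these shifts were 3.52, 3.35, 2.05 and 1.59. The processing moved them as well, to 3.96, 3.66, 2.10 and 1.87 with normexp and quantile normalization, in the same order.

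**Figure D3:**
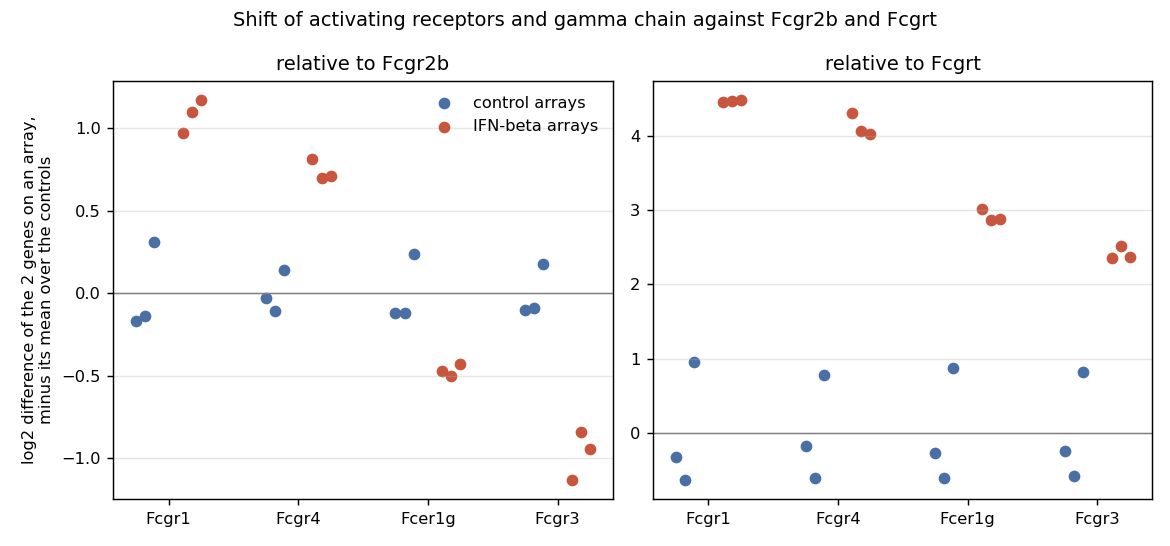
Log2 difference between each activating receptor or the gamma chain and Fcgr2b (left) or Fcgrt (right) on each array, minus its mean over the 3 controls, with 1 point per array. Relative to Fcgr2b, Fcgr1 and Fcgr4 lie above the controls on the IFN-beta arrays and Fcer1g and Fcgr3 below them, and relative to Fcgrt all 4 lie above.

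Among receptors for other immunoglobulins, 8 of 13 listed genes could be tested. Of these, 3 were higher and 2 lower with IFN-beta, where 11.8% of all genes tested were higher and 8.02% lower. The median log2 fold change of the 8 was 0.14, against 0.10 for all genes. Fcer1a, the IgE-binding chain of the high-affinity IgE receptor, which also uses the gamma chain, read -4.62, -4.31 and -4.07 in the controls and -0.82, -0.45 and -1.45 with IFN-beta. It rose by 3.43 ± 0.28 (SE; limma, adjusted p = 2.99e-04) on the log2 scale. Ms4a2, the beta chain of the same receptor, read -2.48, -2.46 and -1.96 in the controls and 1.32, 0.98 and 0.21 with IFN-beta, and rose by 3.14 ± 0.31 (SE; limma, adjusted p = 5.98e-04). The groups did not overlap for either chain. Basophil and mast cell markers, a list that holds both genes, were well above background on all arrays (8 of 8), and the log2 of their summed level was 2.94 to 3.68 in the controls and 6.11 to 6.67 with IFN-beta. Their part in these changes, and in those of the gamma chain, was not tested.

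Trim21, a cytosolic receptor for the constant region of antibodies carried into a cell on a virus, rose by 1.14 ± 0.20 (SE; limma, adjusted p = 0.00851), but was not called against control 3 alone (0.79, adjusted p = 0.0873). Fcrls, an Fc receptor-like gene, fell, with a log2 fold change of -1.18 ± 0.17 (SE; limma, adjusted p = 0.00318). Fcrl1, another Fc receptor-like gene, best known from B cells, fell by 0.91 on the log2 scale (limma, adjusted p = 0.0473). The call of Fcrl1 was lost when IFN-beta 2 or 3 or control 1 or 2 was left out, and the highest adjusted p of those fits was 0.151.

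Downstream of the receptors, 3 of 27 genes of activating signalling were higher and 1 was lower, where 19.8% of all genes were called. The median log2 fold change of the list was 0.36, against 0.10 for all genes. Fyn, a Src-family kinase, rose by 1.11 ± 0.20 (SE; limma, adjusted p = 0.00917), and Vav1, an exchange factor for Rac, by 0.88 ± 0.20 (SE; limma, adjusted p = 0.0219). Card9, an adaptor toward NF-kappaB, rose by 1.12 ± 0.24 (SE; limma, adjusted p = 0.017). Plcg1, a phospholipase C, fell, with a log2 fold change of -1.10 ± 0.18 (SE; limma, adjusted p = 0.00568). Syk itself read 4.02, 3.91 and 4.41 in the controls and 4.34, 4.54 and 4.53 with IFN-beta, and was not called (0.36, limma, adjusted p = 0.207). It was named for its role and not by the rule for named genes. Of its 4 tested probes, 1 changed in the opposite direction. The count for this list rested on the controls. Without control 3, 17 genes were called (15 higher, 2 lower), where 48.5% of all genes were called, 27.7% higher and 20.9% lower. Without control 1, control 2 or IFN-beta 2, 2 genes were called. Against control 3 alone, which is 1 array, the median log2 fold change of the list was 0.04, against -0.10 for all genes. The calls of Card9 and Vav1 were lost without control 1, control 2 or IFN-beta 2, and also without IFN-beta 1 for Card9 and without IFN-beta 3 for Vav1.

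On the inhibitory side, 1 of 11 genes was called, where 19.8% of all genes were. Cblb, a ubiquitin ligase that turns off activated receptors and kinases, read 1.14, 1.16 and 1.57 in the controls and 2.82, 2.60 and 2.92 with IFN-beta. It rose by 1.49 ± 0.19 (SE; limma, adjusted p = 0.00194), and by 1.20 against control 3 alone (adjusted p = 0.0268). Inpp5d, which encodes the SHIP1 phosphatase that Fcgr2b recruits, had a log2 fold change of 0.34 (limma, adjusted p = 0.345), and Ptpn6, which encodes the phosphatase SHP-1, one of 0.55 (limma, adjusted p = 0.107). Both were named for their role and not by the rule for named genes. Without control 3, 6 of the 11 were called, all higher, where 48.5% of all genes were called and 27.7% were higher. Against control 3 alone, which is 1 array, the median log2 fold change of the 11 was -0.08, against -0.10 for all genes.

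Where 19.8% of all genes were called, only Myo10, an unconventional myosin, was called of 25 genes that build the phagocytic cup. It fell by 1.02 on the log2 scale (limma, adjusted p = 0.0157), and the call was lost without IFN-beta 2 or IFN-beta 3, while 12 of the 25 were called without control 3 (10 higher, 2 lower), close to the 48.5% of all genes, and 2 without IFN-beta 1. Of the 5 subunits of the phagocyte oxidase, limma called 0, against 19.8% of all genes, with 1 at an unadjusted p under 0.05. The lowest p-values there were those of Ncf4, at 0.61 ± 0.21 (SE, limma, adjusted p = 0.0774), and Cyba, at 0.52 ± 0.23 (SE, limma, adjusted p = 0.146). Without control 3, 4 of the 5 were called higher, where 27.7% of all genes were. Of 8 listed receptors that also signal through the gamma chain, 6 were tested. Limma called 0 of the 6, against 19.8% of all genes, with 2 at an unadjusted p under 0.05. For the oxidase and for this list, the share of all genes under that unadjusted p was not computed. The 2 genes were Oscar, at 0.61 ± 0.19 (SE, limma, adjusted p = 0.0567), and Clec4b1, at -0.62 ± 0.25 (SE, limma, adjusted p = 0.121). The fit without control 3 tested 7 genes of that list and called 3 higher, where 27.7% of all genes were. Against control 3 alone, which is 1 array, the log2 difference was 0.31 for Oscar and -1.13 for Clec4b1. The median was then -0.29 for the cup list, -0.18 for the oxidase and -0.34 for the gamma chain list, against -0.10 for all genes.

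**Figure D4:**
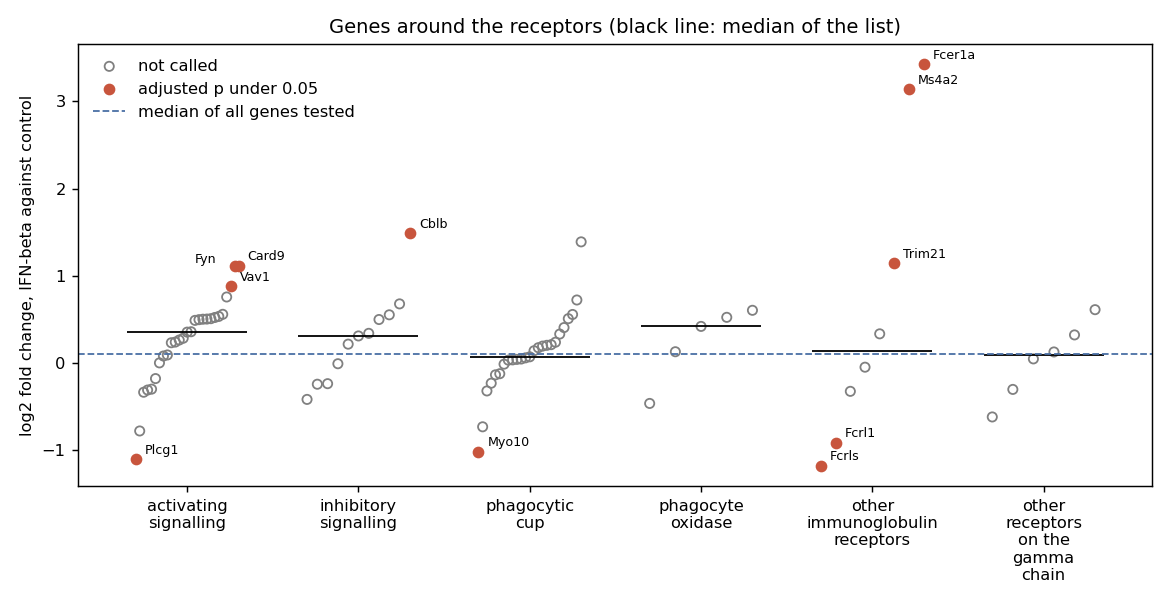
Log2 fold change with IFN-beta for each tested gene of 6 lists around the receptors, sorted within a list, with called genes filled and named, a black line at the median of each list and a dashed line at the median of all genes tested (0.10). Most genes of the signalling, phagocytic cup and oxidase lists were not called, and Fcer1a and Ms4a2 stand highest.

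The neighbours of the receptor genes were examined in gene order, with 3 protein-coding genes on each side, a choice made after the receptor values were seen. In the stretch from Fcgr2b to Fcer1g, 7 of 12 other genes were tested, and their log2 fold changes ran from -1.97 to 0.39. None was called higher, where 11.8% of all genes were. Pcp4l1 fell by 1.97 on the log2 scale (limma, adjusted p = 4.84e-04). Around Fcgr1, 3 of 5 tested neighbours were higher, where 11.8% of all genes were, the histone genes H3c13 (0.97) and H2bc18 (0.96) and the gene BC107364 (0.89), all by less than Fcgr1, and Txnip fell by 0.68. Around Fcgrt none of 6 tested neighbours was called by limma, where 19.8% of all genes were. Rcn3, next to Fcgrt, had the lowest fold change, -3.76 ± 1.20 (SE, limma, adjusted p = 0.0642), against -2.27 for Fcgrt. With so few neighbours, these counts were not tested against the shares of all genes.

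**Figure D5:**
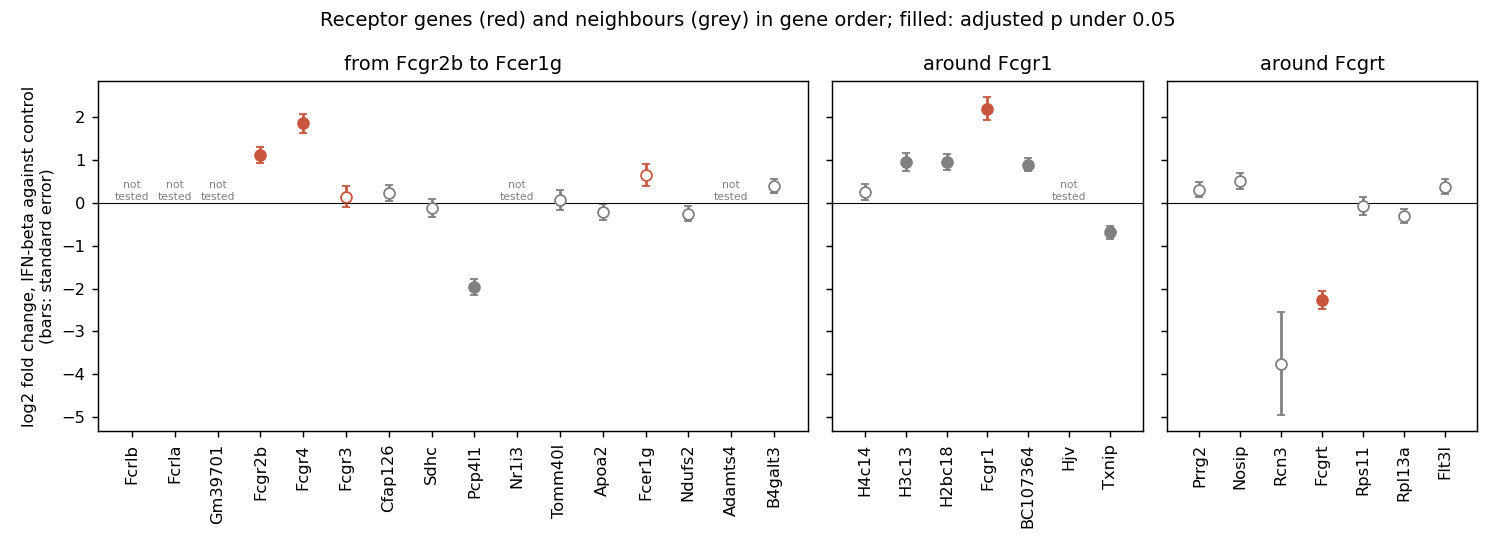
Log2 fold change with IFN-beta of the receptor genes (red) and of neighbouring protein-coding genes (grey) in the order of the RefSeq annotation, with bars for the standard error and filled points for called genes. No tested neighbour was called higher from Fcgr2b to Fcer1g, where 11.8% of all genes were, and Fcgr1 stands above its called neighbours. Around Fcgrt no tested neighbour was called, where 19.8% of all genes were. Rcn3 has a lower fold change than Fcgrt, with a wider standard error.

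The genes with the most similar profile were sought among 13361 genes over the 6 arrays, by the root-mean-square difference of log2 values after centring each gene. For Fcgr1 they were Oas1c (0.0702), a gene of the oligoadenylate synthetase family, Ifi204 (0.0812), an interferon-inducible gene, and Klk1b4 (0.0917). For Fcgr4 they were Ube2s (0.0530), Nt5c3 (0.0648) and Kdr (0.0735), and for Fcgr2b Ttc1 (0.0397), Cyb561a3 (0.0442) and Riox2 (0.0512). For Fcgrt they were Sulf2 (0.0763), Maged2 (0.109) and Pros1 (0.140). These distances describe 6 arrays that share their scaling and carry no test.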

How the data were processed

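The deposited scanner file of each array gives the processed signal of Agilent Feature Extraction 12.0.3.1, per the file headers, as a spot intensity on a linear scale after that software's corrections, and its flags mark probes well above background. A deposited table of the series holds log2 values whose normalization is not given in the sources used here; it correlated with the log2 processed signals at 0.996 to 0.999 per array and served as an alternative. Probe positions are those of the files (mm9).

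Control and outlier spots were left out, spots of a probe were averaged, and log2 intensities were set against the 75th percentile of each array. Of 56598 probes on all arrays, the 29794 well above background on all 3 arrays of at least 1 group were tested, with the probe of highest mean for each gene. Probes were named by accession (33895), by symbol (9464) or kept the name of the file (13246). Groups were compared with limma 3.58.1 in R 4.3.3 (lmFit and eBayes), after the code was tested on simulated data. The members and gene lists were chosen with earlier results of these data known. The text names every member, up to 4 called genes per direction and list, or the 2 with the lowest p where none was called, and the 3 nearest profiles of each called member. Syk, Inpp5d and Ptpn6 were added for their role, and single marker genes after their values were seen. Marker lists: B cell, T and NK cell, endothelial and dendritic cell summed levels (log2) ran over the arrays from 1.42 to 1.92, 0.75 to 1.57, 3.87 to 4.86 and 4.55 to 5.75, with Cd79a, Ncr1 and Xcr1 not well above background on any array. Same-numbered replicates did not deviate together (correlations 0.0719, 0.0223 and 0.0729), so the numbers were not taken to pair arrays. In all, 22 alternatives were tried. A neighbouring gene and a marker list are not reported here.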

Additional observations from a re-analysis of the deposited data

How the results depend on the processing

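Fcgr1, Fcgr4, Fcgr2b, Fcer1g and Fcgrt kept their direction in all 22 alternatives, and the 8 pair differences kept theirs in all 17 alternatives in which they were recomputed. Not all of these could move the values. The filters on dim probes, the trend and robust options of eBayes and the replicate block left each log2 fold change as it was. Scaling by a single factor and the replicate block left the pair differences as they were. The slide as a block and slide 1 alone gave the same fold changes. With spike-in scaling, 363 genes were called in place of 3857, and 34.2% of them were higher in place of 59.5%. Fcgr1 was then 2.01, Fcgr4 1.67, Fcgr2b 0.93 and Fcgrt -2.46, none called (limma, adjusted p = 0.516, 0.904, 1.0 and 0.199). With normexp and the 75th percentile 69.7% of the calls were higher, and within slide 1 72%, of 286 calls. Within slide 1 the values of Fcgr1 (2.06), Fcgr4 (1.90), Fcgr2b (1.09) and Fcgrt (-2.41) were not called (adjusted p = 0.123, 0.0996, 0.191 and 0.0563). With the slide as a block 1029 genes were called and Fcgr2b (1.09) was not. Against control 3 alone 1935 genes were called and Fcgr2b (0.84) was not. No filter on dim probes gave 1688 calls, and averaging controls 1 and 2 as 1 sample, an alternative chosen after seeing the data, gave 1990. Array weights, whose estimation stopped before it converged, gave 12732 calls, with Fcgr3 (0.33) and Fcer1g (0.82) among them. Fcgr3 turned negative with quantile normalization (-0.0061), spike-in scaling (-0.041), normexp with quantile normalization (-0.0125), the slide as a block and within slide 1 (-0.0473 each), without control 2 (-0.0092) and against control 3 alone (-0.32). Leaving out 1 array gave 1825 (without control 1) to 10976 (without control 3) calls, with 2015, 1853 and 2107 when control 2, IFN-beta 2 or IFN-beta 3 was left out. The log2 fold changes then ran from 2.02 to 2.50 for Fcgr1, 1.69 to 2.08 for Fcgr4, 1.01 to 1.27 for Fcgr2b, -2.44 to -2.14 for Fcgrt, 0.48 to 0.92 for Fcer1g and -0.0092 to 0.39 for Fcgr3. With the replicate number as a block, the adjusted p of Fcgr1, Fcgr4, Fcgr2b and Fcgrt was 0.00486, 0.00595, 0.0155 and 0.00593, that of Fcer1g 0.0761 and that of Fcgr3 0.62, and 3249 genes were called. The counts for the gene lists were recomputed under the same settings, a step added after seeing the data. Where no cause is given, the cause was not tested. With 3 arrays a group, their number limits the precision.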
